A study of Oryza sativa with 3 samples.

Results

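The MIR2118 and MIR2275 families of rice were followed in small RNA libraries of 3 lines. Members were all known precursors whose names start with MIR2118 or MIR2275, with every distinct sequence aligned to them. There were 19 such precursors with at least 1 read, 16 of MIR2118 and 3 of MIR2275, of 516 known precursors with a read in any library. The libraries came from the OsNAR2.1 overexpression line Ov199, in which the Ubi (ubiquitin) promoter of the construct pUbi-OsNAR2.1 drives the gene, from the OsNAR2.1 RNAi line, and from the wild type Nipponbare (NP). OsNAR2.1 is the partner protein of high-affinity nitrate transporters. The plants were grown in field plots, and at blooming RNA from the leaves, stems and flowers of each line was pooled to give 1 library. Each transgenic group was therefore 1 line, no line had a replicate, and the organ a read came from was not recorded. OsNAR2.1 mRNA is not measured by small RNA reads, so the line labels could not be checked with it. The RNAi library was assigned by its title alone, since its line label reads Ni, which the labels do not explain, and every RNAi value below rests on that title.

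In grasses, miR2118 and miR2275 start the production of phased small interfering RNAs (phasiRNAs) in anthers. A miRNA of 22 nt cuts a long non-coding RNA, the cut product is copied into double-stranded RNA, and a Dicer enzyme then cuts it at regular steps. miR2118 is known for the 21 nt phasiRNAs of early anthers before meiosis, and miR2275 for the 24 nt phasiRNAs that accumulate around meiosis. In both families the strand known to direct cleavage is the 22 nt strand of the 3p arm of the hairpin, and the 5p strand is the one it pairs with in the duplex. The length and the arm of each read are thus the features by which these families are usually described.

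The 22 nt sequences of MIR2118 are shown first, since they carry most reads of the family and show how its members differ. All were read without a mismatch, capitals mark the seed (bases 2 to 8), the letters after the family name are the precursors to which a sequence aligned, and U is written as T.
MIR2118b/n-3p: tTCCCGATgcctcccattccta
MIR2118c/q-3p: tTCCCGATgcctcctattccta
MIR2118o-3p: cTCCTGATgcctcccaagccta
MIR2118f/j/m-3p: tTCCTGATgcctcccattccta
MIR2118e/r-3p: tTTCCCAAtgcctcccatgcct
MIR2118o-5p: gGCATGGGgacatgaaggaatg
MIR2118r-5p: gGCATGGGaacatggaggaaga
MIR2118f/g/n-5p: gGAATGGGaacatggaggaaag
MIR2118j/m-5p: gGAATGGGaacatgaaggaaag

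The 3p strands fell into a small number of seeds. MIR2118b/n and MIR2118c/q shared the seed TCCCGAT, and MIR2118o and MIR2118f/j/m shared TCCTGAT. With positions counted from 1 at the 5′ end and MIR2118b/n-3p as the reference, the only difference of MIR2118c/q-3p was C15T and that of MIR2118f/j/m-3p was C5T, which lies in the seed. MIR2118o-3p differed by T1C, C5T, T17A and T18G. The e/r sequence began 1 base upstream of the others, and at the usual start a 20 nt form of it was read (tTCCCAATgcctcccatgcc). Against MIR2118o-5p, the 5p strand of MIR2118f/g/n differed by C3A, G9A, A15G and T21A. Pairing of the 5p and 3p strands as predicted by RNAduplex gave 15 base pairs for MIR2118o and 17 for MIR2118n, with 4 and 3 unpaired bases inside each strand.

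Of the 12 sequences of MIR2275, the 4 with more than 1 read are shown because their length and arm differ from those of MIR2118, and the 22 nt 3p strand of MIR2275d, with 1 read, because it is the form known to guide cleavage.
MIR2275c/d-5p, 21 nt: aGAATTGGaggaaaacaaact
MIR2275c/d-5p, 22 nt with a mismatched first base: tAGAATTGgaggaaaacaaact
MIR2275c/d-5p, 20 nt: aGAATTGGaggaaaacaaac
MIR2275d-3p, 22 nt: cTTGTTTTtctccaatatctca
MIR2275d, 21 nt, 8 bases upstream of the 3p strand: aTGTTCAGcttgtttttctcc
The 21 nt 5p strand lies at positions 26 to 46 of MIR2275d and at 16 to 36 of MIR2275c, and the 22 nt 3p strand at 91 to 112 of MIR2275d. RNAduplex paired them over 18 base pairs, with 0 unpaired bases inside the 21 nt strand and 1 inside the 22 nt strand.

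The libraries held 94154 aligned reads in Ov199, 62724 in RNAi and 49341 in NP, with each distinct sequence counted a single time. Levels are given as normalized counts, reads per 1000000 aligned reads, of which 1 read was worth 10.6 in Ov199, 15.9 in RNAi and 20.3 in NP. A count of 0 allows up to 3 reads, or 31.9, 47.8 and 60.8 normalized counts in the same order. Molecular identifiers were not used, so every interval, limit and test given here covers counting error only, and a test between libraries compares those libraries and not the lines.

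Both families had few reads in all 3 libraries, though neither was among the lowest known families. MIR2118 had 80 reads in Ov199, 54 in RNAi and 33 in NP, equal to 849.7 (95% exact Poisson interval, 673.7 to 1057), 860.9 (646.7 to 1123) and 668.8 (460.4 to 939.3) normalized counts. By reads it ranked at 51 of 231 known families in Ov199, at 54 of 229 in RNAi and at 56 of 223 in NP. The 3 intervals overlapped, and the NP value was the lowest. MIR2275 had 18 reads in Ov199, 16 in RNAi and 19 in NP, equal to 191.2 (113.3 to 302.1), 255.1 (145.8 to 414.2) and 385.1 (231.8 to 601.3) normalized counts. By reads MIR2275 ranked at 93 of 231 known families in Ov199, at 89 of 229 in RNAi and at 76 of 223 in NP. For MIR2275, NP was the highest library and Ov199 the lowest, and its intervals overlapped too.

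Neither family differed between libraries after adjustment. For each family, its reads and all other aligned reads were set against each other in a two-sided Fisher's exact test, and p-values were adjusted by Benjamini-Hochberg over all known families with a read in either library. The test called 18.9% of 259 families between Ov199 and NP, 9.8% of 255 between RNAi and NP and 18.2% of 264 between RNAi and Ov199. MIR2118 was at 1.27 times the NP level in Ov199 (95% interval of the ratio, 0.837 to 1.97, adjusted p = 0.56 in the exact test) and at 1.29 times in RNAi (0.82 to 2.05, adjusted p = 0.72). The RNAi library was at 1.01 times the Ov199 level (0.704 to 1.45, adjusted p = 1), a ratio whose direction turned under other scalings. MIR2275 in Ov199 was at 0.496 times the NP level (0.246 to 0.999). The unadjusted p of this difference was 0.037 and the adjusted p 0.15 in the exact test. In RNAi it was at 0.662 times the NP level (0.319 to 1.36, adjusted p = 0.68), and RNAi was at 1.33 times Ov199 (0.637 to 2.77, adjusted p = 0.75). In pooled organs, fewer cells of a type and less RNA per cell cannot be told apart.

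The reads of MIR2118 were concentrated at a few precursors. MIR2118n had the most, with 37 reads in Ov199, 19 in RNAi and 9 in NP, equal to 393.0, 302.9 and 182.4 normalized counts. It was high in Ov199 and low in NP, and both arms of its hairpin were read. MIR2118o had 31, 14 and 11 reads in Ov199, RNAi and NP, equal to 329.2, 223.2 and 222.9 normalized counts. All 56 reads of MIR2118o were found at no other precursor, whereas only 4 of the 65 at MIR2118n were, so that MIR2118o was the member with the best-defined level. MIR2118b had 16, 12 and 7 reads in Ov199, RNAi and NP, of which 34 of 35 lay on the 3p arm and were also reads of MIR2118n. MIR2118g had 16, 14 and 2 reads, and MIR2118f 20, 8 and 2, in Ov199, RNAi and NP, and the 5p strand they share made up 25 of the 32 reads at MIR2118g and 25 of the 30 at MIR2118f. For both, the NP library was the low one.

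The remaining 11 MIR2118 precursors had 14 reads or fewer over the 3 libraries. MIR2118e and MIR2118r stood the other way, with 4 and 3 reads in Ov199, 3 and 4 in RNAi, and 7 and 5 in NP. The 20 nt 3p strand that they share had 4 reads in NP and 0 in the other libraries. MIR2118d and MIR2118m had 6 reads each and MIR2118p had 5. MIR2118k had 4 reads, MIR2118c, MIR2118j, MIR2118l and MIR2118q had 3 each, and MIR2118h had 1. Reads were found at 13 MIR2118 precursors in Ov199, 16 in RNAi and 10 in NP. The members without reads in NP (MIR2118c, MIR2118h, MIR2118j, MIR2118k, MIR2118l and MIR2118q) had at most 3 reads in either transgenic line, a level that the NP count of 0 also allows. Sequences with several places made up 47.5% of MIR2118 reads in Ov199, 50% in RNAi and 39.4% in NP, and no member read aligned to a precursor of another family.

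**Figure D1:**
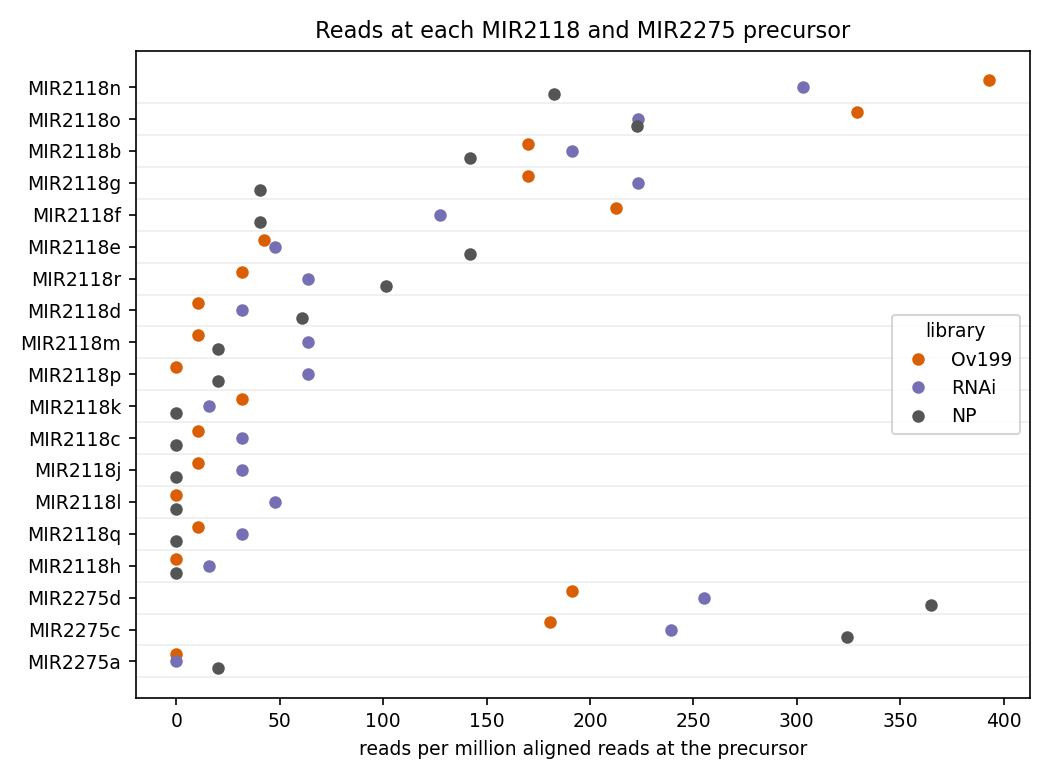
Normalized counts (reads per 1000000 aligned reads, x axis) at each MIR2118 and MIR2275 precursor (rows, ordered by reads within a family), with 1 point per library; a shared sequence counts at each of its precursors. MIR2118n reached 393.0 in Ov199, 302.9 in RNAi and 182.4 in NP, while MIR2275d stood at 191.2, 255.1 and 364.8.

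No member precursor passed the exact test between libraries after adjustment over all known precursors, of which it called 19% between Ov199 and NP, 15.5% between RNAi and NP and 20.9% between RNAi and Ov199. Past 2-fold on the normalized count + 10 scale were 11 of 14 tested MIR2118 precursors between Ov199 and NP, 11 of 16 between RNAi and NP and 8 of 16 between RNAi and Ov199. Over all known precursors, 42.5%, 43.5% and 46% were past 2-fold in the same comparisons. By direction, Ov199 exceeded NP at 7 precursors and was below it at 4 (23.7% and 18.8% of all known precursors), RNAi exceeded NP at 10 and was below it at 1 (25.3% and 18.2%), and RNAi exceeded Ov199 at 8 and was below it at 0 (25.4% and 20.7%). Of the 3 MIR2275 precursors, MIR2275a with its single read was past 2-fold, in both comparisons with NP. In each comparison 6 of the MIR2118 precursors past 2-fold had 3 reads or fewer in both libraries. Among the others, MIR2118f, MIR2118g and MIR2118n share a strand, as do MIR2118e and MIR2118r, so the counts do not stand for separate changes. In both comparisons of RNAi the others included MIR2118m and MIR2118p, on 4 RNAi reads each, which share no sequence with each other. Among those with at least 10 reads in the pair of libraries, 4 of 6, 3 of 6 and 0 of 5 were past 2-fold, against 24.7%, 25.5% and 29.8% of all known precursors with as many reads. The median log2 fold of MIR2118 precursors was 0.79, 1.33 and 0.92, and over all known precursors 0.05, 0.06 and 0.09. With precursors at 0 set to the bound of 3 reads, and those at 3 reads or fewer in both libraries set to no fold, both medians were 0 in each comparison.

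The smallest adjusted p-values of MIR2118 belonged to precursors that carry the f/g/n 5p strand. MIR2118f in Ov199 was at 5.24 times the NP level (95% interval of the ratio, 1.27 to 46.2, on 20 and 2 reads). Its unadjusted p was 0.012 and its adjusted p 0.061 in Fisher's exact test over 485 precursors. MIR2118g in RNAi was at 5.51 times the NP level (1.26 to 49.9, on 14 and 2 reads), with an unadjusted p of 0.011 and an adjusted p of 0.065 in the exact test over 478 precursors. MIR2118g and MIR2118n in Ov199 against NP had unadjusted p-values of 0.045 and 0.042 and adjusted p-values of 0.17 in the exact test. MIR2118p had 4 reads in RNAi, 3 of them of a 15 nt sequence shared with MIR2118b and MIR2118n, and 0 in Ov199 (unadjusted p = 0.026, adjusted p = 0.098 over 493 precursors, exact test). An unadjusted p under 0.05 in the exact test was reached by 3 of 14 tested MIR2118 precursors between Ov199 and NP. Between RNAi and NP it was reached by 1 of 16, and between RNAi and Ov199 by 1 of 16. For MIR2275 the number was 0 in each comparison. The share of all known precursors at that unadjusted threshold was not computed. After adjustment, 19%, 15.5% and 20.9% of them passed in the same order, and the unadjusted shares cannot be lower than these. Whether 3 of 14 exceeds the unadjusted share cannot be told from these values, so no trait of MIR2118 is read from the counts.

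By distinct sequence, the 5p strand of MIR2118o was the most read, with 20 reads in Ov199, 6 in RNAi and 9 in NP, equal to 212.4, 95.7 and 182.4 normalized counts. RNAi was the low library for this strand. The f/g/n 5p strand had 15, 8 and 2 reads in Ov199, RNAi and NP, or 159.3, 127.5 and 40.5 normalized counts, with NP low. The b/n 3p strand, a form known to guide cleavage, had 12, 5 and 5 reads in Ov199, RNAi and NP, or 127.5, 79.7 and 101.3 normalized counts. The o 3p strand had 1 read in Ov199, 5 in RNAi and 1 in NP, equal to 10.6, 79.7 and 20.3 normalized counts. Thus the strands of MIR2118o did not have the same order of libraries, a difference that was not tested for single strands. A 21 nt form of the b/n 3p strand, without its last base, had 1, 1 and 2 reads in Ov199, RNAi and NP. The sequence tGTAGGAAtgggaacatggag from the 5p arm of MIR2118g, which starts 4 bases upstream of the f/g/n strand, had 4 reads in RNAi and 0 in the other libraries. The 17 nt aAAAGAGAgtcaaagag, from position 26 of MIR2118e and with a mismatch, had 2 reads in Ov199, 0 in RNAi and 2 in NP.

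Most MIR2118 sequences were read in 1 library only. Of 49 distinct sequences, 40 were found in a single library and held 61 of the 167 reads. Of the 49, 26 had 1 read in total and so could not be in more than 1 library. The share of single-library sequences over all known precursors was not computed, so no trait of this family is shown. Another 5 were found in all 3 libraries and held 93 reads. These 5 were the 22 nt strands of MIR2118o (both arms), f/g/n (5p) and b/n (3p), and the 21 nt form of b/n. Exact reads, with no mismatch, insertion or deletion recorded, made up 90% of MIR2118 reads in Ov199, 81.5% in RNAi and 84.8% in NP, against 84.3%, 84.5% and 83.0% at the other known precursors.

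Most MIR2118 reads were 22 nt long. In Ov199 54 of 80 reads had this length (67.5%, with a 95% Wilson interval of 56.6 to 76.8%). The RNAi library had 29 of 54 (53.7%, interval 40.6 to 66.3%) and NP 18 of 33 (54.5%, interval 38.0 to 70.2%). At the other known precursors the 22 nt share was 11.0% in Ov199, 11.0% in RNAi and 10.5% in NP, where 21 nt led with 51.7%, 50.7% and 48.1%. Within each library the MIR2118 share was the higher of the pair in a Fisher's exact test of reads (adjusted p = 5.6e-32 in Ov199, 5.5e-14 in RNAi and 1.2e-09 in NP, over 6 tests). Reads of the same sequence may be copies of 1 molecule, which cannot be told without molecular identifiers. These p-values, and those of the other tests on reads, may therefore be too small, and they were not computed by distinct sequence. By distinct sequences the share was 36% (9 of 25) in Ov199, 29.2% (7 of 24) in RNAi and 35.7% (5 of 14) in NP, against 13.9%, 13.3% and 12.9% at the other known precursors. Among known families with at least 20 reads, MIR2118 had the second highest 22 nt share of 89 in Ov199 and of 83 in RNAi, and the third highest of 75 in NP, where the family median was 9.56%, 7.56% and 7.89%. MIR397, which targets laccase genes, led in every library, with 82.1%, 77% and 78.1%. The share of MIR2118 did not differ detectably between libraries (Fisher's exact test with adjustment over 15 tests chosen after the data were seen, adjusted p = 0.31 between Ov199 and NP, 1 between RNAi and NP and 0.27 between RNAi and Ov199).

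**Figure D2:**
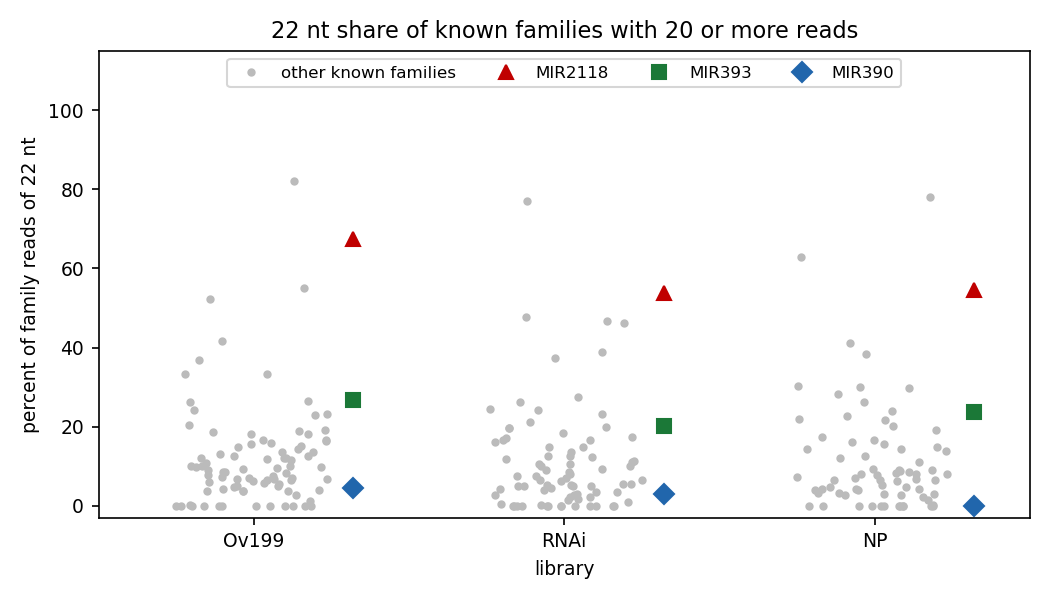
Share of reads of 22 nt (y axis, percent) in each library (x axis) for every known family with at least 20 reads; grey points are other families and the larger symbols are MIR2118, MIR393 and MIR390. MIR2118 stood at 67.5% in Ov199, 53.7% in RNAi and 54.5% in NP, below the grey point of MIR397 in each library, and MIR390 did not exceed 4.41%.

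MIR2275 differed from MIR2118 in length. Reads of 21 nt made up 11 of 18 in Ov199 (61.1%), 15 of 16 in RNAi (93.8%) and 14 of 19 in NP (73.7%). Reads of 22 nt numbered 5 in Ov199 (27.8%, with a Wilson interval of 12.5 to 50.9%), 1 in RNAi (6.25%, interval 1.11 to 28.3%) and 1 in NP (5.26%, interval 0.935 to 24.6%). Against the other known precursors, the 22 nt share of MIR2275 did not pass the adjusted threshold (adjusted p = 0.062 in Ov199, 1 in RNAi and 0.86 in NP, Fisher's exact test). The 22 nt share was higher for MIR2118 than for MIR2275 in each library (adjusted p = 0.011 in Ov199, 0.0078 in RNAi and 0.0046 in NP, Fisher's exact test on the reads over the same 15 tests). By distinct sequences the direction was reversed in Ov199 (36% for MIR2118 against 40%, or 2 of 5, for MIR2275) and in RNAi (29.2% against 50%, or 1 of 2), and kept in NP (35.7% against 14.3%, or 1 of 7), with no test. Of the 5 reads of 22 nt in Ov199, 4 were the sequence that begins with a mismatched T 1 base upstream of the usual 5p start, and 1 was the exact sequence at that place. With exact matches only, the 22 nt share of MIR2275 was 7.69% in Ov199 (1 of 13 reads) and 0 of 15 in NP, which allows up to 3 reads. The difference of Ov199 from NP in this share was not detectable (adjusted p = 0.19, exact test), nor was that of RNAi from Ov199 (adjusted p = 0.30).

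**Figure D3:**
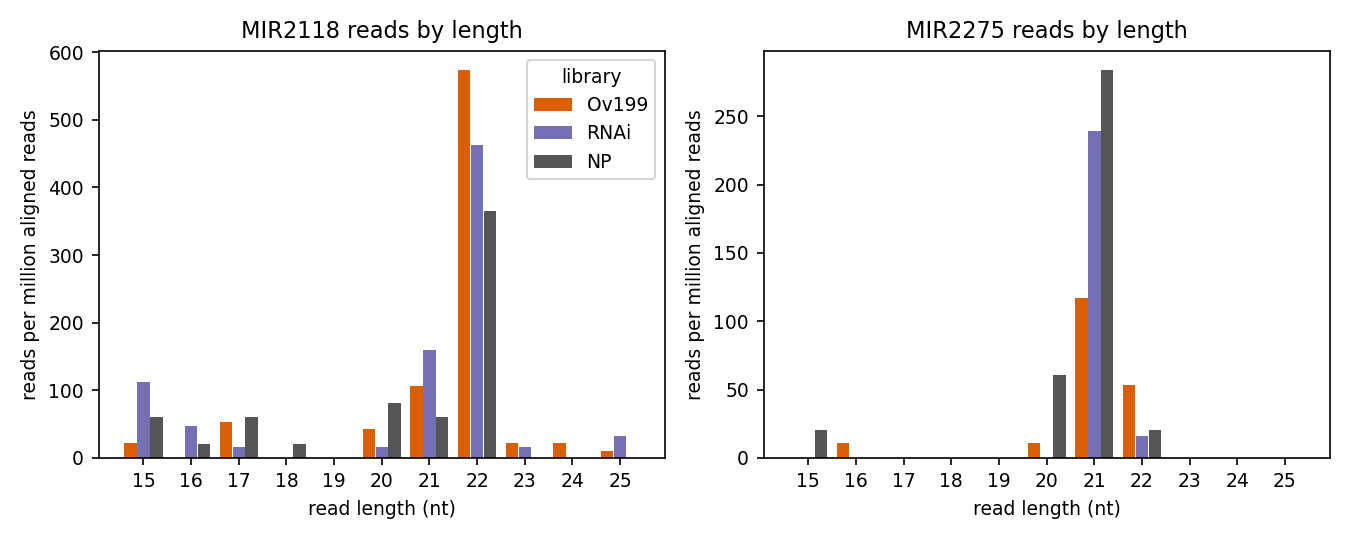
Normalized counts (reads per 1000000 aligned reads, y axis) of MIR2118 (left) and MIR2275 (right) by read length in nt (x axis), with 1 bar per library. The peak of MIR2118 is at 22 nt, with 573.5 in Ov199, 462.3 in RNAi and 364.8 in NP, and that of MIR2275 at 21 nt, with 116.8, 239.1 and 283.7.

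Reads of both arms were found for MIR2118. Reads were placed on an arm by the start of their alignment, in windows around the strands shown above that were set after the positions had been seen. In Ov199 41 reads lay on the 5p arm and 25 on the 3p arm, in RNAi 23 and 20, and in NP 12 and 13. Of the reads of both arms, the 5p arm thus held 62.1% in Ov199 (with a Wilson interval of 50.1 to 72.9%), 53.5% in RNAi (interval 38.9 to 67.5%) and 48% in NP (interval 30.0 to 66.5%). These shares did not differ detectably (Fisher's exact test of reads, adjusted p = 0.33 between Ov199 and NP, 0.93 between RNAi and NP and 0.54 between RNAi and Ov199). Over the 3 libraries, 65 of 76 reads of the 5p arm and 36 of 58 of the 3p arm were 22 nt long. The first base was G in 69 of the 76 reads of the 5p arm. On the 3p arm it was T in 46 of 58 reads and C, the first base of the MIR2118o strand, in 11.

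Some MIR2118 reads began outside the windows of both arms. They numbered 14 of 80 in Ov199, 11 of 54 in RNAi and 8 of 33 in NP, and none of these 33 reads was 22 nt long. Of them 23 were 15 to 18 nt long, and 17 had no recorded mismatch. In the windows of both arms alone, 22 nt made up 81.8% of MIR2118 reads in Ov199, 67.4% in RNAi and 72% in NP. The windows were drawn around strands that were mostly 22 nt long. The lack of 22 nt reads outside them and the higher shares inside were thus partly fixed by that choice. Placement went by the start alone, so a read outside the windows can still overlap a strand. An example is the 21 nt read from position 28 of MIR2118o, whose 5p strand begins at position 39. MIR2118d, MIR2118k and MIR2118l had mostly or only reads that began outside the windows. Of the 6 reads at MIR2118d, 0 began in either window, as did 0 of the 3 reads at MIR2118l and 1 of the 4 at MIR2118k.

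At MIR2118o and MIR2118n, most reads in the arm windows began at 1 position. Only reads that began in a window are counted, and reads of the same sequence may be copies of 1 molecule. At MIR2118o, 36 of 41 reads of the 5p arm began at position 39 and 11 of 12 of the 3p arm at position 112. At MIR2118n, 26 of 27 reads of the 5p arm began at position 48 and 31 of 34 of the 3p arm at position 125. For MIR2275d, 42 of 48 reads of the 5p arm began at position 26, but only 11 of 17 in Ov199. Lengths were less uniform on the 3p arm, since 36 of the 41 reads of the 5p arm of MIR2118o were 22 nt long, whereas the 12 of its 3p arm held 7 of 22 nt, 4 of 21 nt and 1 of 20 nt.

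In MIR2275 the 5p arm held nearly all reads. It had 17 of 18 reads in Ov199, 15 of 16 in RNAi and 16 of 19 in NP, and the 3p arm had 0, 1 and 2 reads. The share of the 5p arm among reads of both arms was higher than in MIR2118 in each library. It was 100% against 62.1% in Ov199, 93.8% against 53.5% in RNAi and 88.9% against 48% in NP (adjusted p = 0.0099, 0.015 and 0.022, Fisher's exact test on the reads). The windows and this test were chosen after the data were seen. By distinct sequences, the 5p and 3p arms of MIR2275 had 4 and 0 in Ov199, 1 and 1 in RNAi, and 5 and 1 in NP. Those of MIR2118 had 7 and 11, 7 and 9, and 3 and 5 in the same order, with no test. The 21 nt 5p strand had 11 reads in Ov199, 15 in RNAi and 11 in NP, equal to 116.8, 239.1 and 222.9 normalized counts, and Ov199 was the low library. It was the only 1 of the 12 MIR2275 sequences found in all 3 libraries, and it held 37 of the 53 reads. Of the 12, 8 had 1 read in total and could not be in more than 1 library. As for MIR2118, the share of single-library sequences over all known precursors was not computed, so no trait of MIR2275 is shown. The 22 nt 3p strand of MIR2275d was read 1 time, in RNAi, and 0 times in Ov199 and NP. The 21 nt sequence that begins 8 bases upstream of it had 2 reads in NP only, as did the 20 nt form of the 5p strand, equal to 40.5 normalized counts each. The other 7 sequences had 1 read each, 3 of them in Ov199 and 4 in NP. MIR2275c and MIR2275d share all their 5p reads and cannot be told apart, with 17 and 18 reads in Ov199, 15 and 16 in RNAi, and 16 and 18 in NP. MIR2275a had 1 read, in NP, of 15 nt and with a mismatch.

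**Figure D4:**
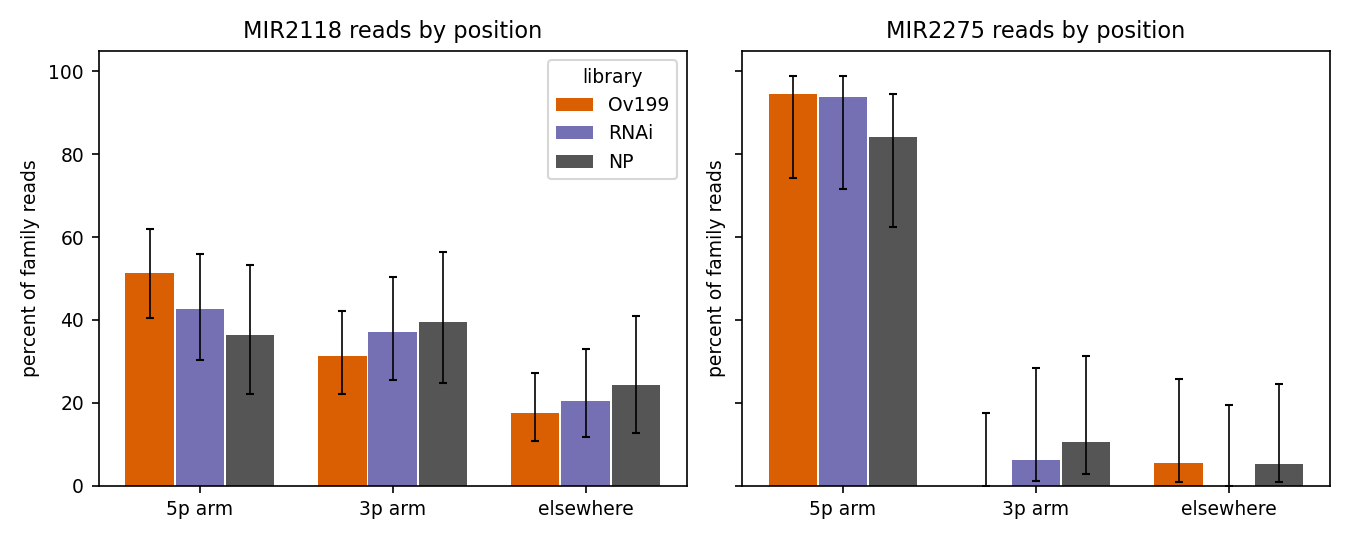
Percent of the family's reads (y axis) that began in the window of the 5p arm, in that of the 3p arm or elsewhere (x axis). MIR2118 is on the left and MIR2275 on the right, with 1 bar per library and 95% Wilson intervals as error bars. MIR2118 had reads on both arms (5p 51.2% in Ov199, 42.6% in RNAi and 36.4% in NP), whereas MIR2275 had 94.4%, 93.8% and 84.2% on the 5p arm.

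Other families with a part in the phasiRNA pathway or in flowers were measured in the same libraries. MIR390, a family that starts the phased siRNAs of TAS3 transcripts with a 21 nt strand, had 68 reads in Ov199, 34 in RNAi and 21 in NP. These equal 722.2, 542.1 and 425.6 normalized counts. In each library the value lay below that of MIR2118 and above that of MIR2275, with no test between families. The 22 nt share of MIR390 was 4.41% in Ov199, 2.94% in RNAi and 0 of 21 reads in NP. MIR393, which targets auxin receptor genes of the TIR1 and AFB group, had a 22 nt share of 26.8% in Ov199, 20.2% in RNAi and 23.8% in NP. Of the 7 families (MIR390, MIR168, MIR162, MIR393, MIR172, MIR529 and MIR535), the adjusted exact test called 3 higher and 1 lower for Ov199 against NP, 2 higher for RNAi against NP, and 3 higher and 1 lower for RNAi against Ov199. Over all known families it called 18.9%, 9.8% and 18.2% in the same order. The 7 were picked for context, so these counts show no trait of the pathway or of flowers. MIR168 and MIR529 had 4521 and 3679 reads in Ov199. At such depth small ratios are called, as for MIR168 at 1.10 in RNAi against Ov199. With adapter-trimmed reads as the scale, MIR390 was also called higher in Ov199 than in NP (adjusted p = 0.036, exact test), and MIR535 was no longer called higher in RNAi than in Ov199 (adjusted p = 0.067, exact test). By Fisher's exact test MIR529, which targets SPL genes, was called higher in all 3 comparisons under each of the 4 scalings tried, with 1.28 times the NP level in Ov199 and 1.84 times in RNAi. MIR168, which targets AGO1, was called higher in Ov199 and in RNAi than in NP under the same 4 scalings, while its direction between RNAi and Ov199 turned with the scaling. MIR162, which targets the Dicer gene DCL1, was at 1.05 times the NP level in Ov199 (interval, 0.828 to 1.33) and at 1.03 times in RNAi (0.80 to 1.34). MIR172, a regulator of AP2-like genes in flowers, had only 13, 4 and 9 reads in Ov199, RNAi and NP. The share of floral RNA in each pool was not recorded, and its part in the levels of MIR2118 and MIR2275 was not tested.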

How the data were processed

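The authors extracted RNA pooled from leaves, flowers and stems, sequenced 1 small RNA library per line and trimmed and filtered the reads. Identical reads were merged into tags, which novoalign placed on known rice precursors and on those predicted by miRDeep2. Versions and settings of the aligner are not given in the sources used here. The deposited counts are reads of each distinct sequence, without normalization. Other deposited columns hold the length and the position of each alignment.

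Each sequence was counted a single time per family and at every precursor where it aligned. Fold was computed on the normalized count + 10 scale with a threshold of 2. Fisher's exact test, two-sided, used a threshold of 0.05 after Benjamini-Hochberg adjustment. It was tried on simulated counts with counting error only. Those held no variation between plants and no copies made by PCR, so they do not show how the test behaves under either. The arm windows, the comparison of arms and of the 2 families, and an alternative limited to the arm windows were added after the data were seen. Members and lists were chosen with earlier results of these data known. Named with their reads were both families, the 5 most read precursors and sequences of each, with ties (for MIR2275 the sequences tied at 1 read were counted together), and every member with an adjusted p under 0.05, of which there were 0. Alternatives were other pseudocounts, scalings (adapter-trimmed reads, edgeR's TMM, DESeq2's size factors), read lengths, exact matches and filters. The software was R 4.3.3 with DESeq2 1.42.0 and edgeR 4.0.16, RNAduplex 2.7.2 and Python 3.11.15 with scipy 1.17.1, pandas 2.3.3, numpy 2.4.6 and matplotlib 3.10.9.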

Additional observations from a re-analysis of the deposited data

How the results depend on the processing

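No paired analysis was possible because each line had 1 library, and no library could be left out for the same reason. Of 72 log2 folds of the families under 12 alternatives each, 62 kept their direction and none passed the adjusted threshold. For MIR2118 in RNAi against Ov199 (log2 fold 0.02) the direction reversed to -0.25 with adapter-trimmed reads, -0.11 with TMM, -0.14 with DESeq2's size factors, -0.12 with exact matches only, -0.22 with reads of 20 to 24 nt, -0.30 with 22 nt reads, -0.12 with sequences of at least 2 reads and -0.032 with the arm windows only. With 22 nt reads, MIR2275 reversed to 1.06 in Ov199 against NP and to -1.28 in RNAi against Ov199, on 5 reads in Ov199 and 1 in each other library. The other directions were kept, with MIR2118 at 0.30 to 0.64 in Ov199 against NP and 0.29 to 0.43 in RNAi against NP, and MIR2275 at -0.65 to -0.22 in RNAi against NP. Relative to aligned reads, adapter-trimmed reads shifted all log2 folds by 0.24 (Ov199 against NP) and -0.27 (RNAi against Ov199), TMM by 0.13 and -0.13, and size factors by 0.09 and -0.17. With these scalings MIR535 was not called lower in Ov199 than in NP.

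The 22 nt share of MIR2118 by distinct sequences was 36% in Ov199, 29.2% in RNAi and 35.7% in NP, in the arm windows only 81.8%, 67.4% and 72%, and with sequences of at least 2 reads 68.3% in RNAi. That of MIR2275 was 7.69% in Ov199 and 0% in NP with exact matches only, 50% of 2 distinct sequences in RNAi, and 0% in RNAi and NP with sequences of at least 2 reads. Member precursors past 2-fold numbered 12 and 12 for Ov199 and RNAi against NP, and 8 for RNAi against Ov199. With a pseudocount of 100 these became 1, 1 and 0, and with at least 10 reads in the pair 4, 3 and 0. In RNAi against Ov199 there were 5 with sequences split equally and 4 with adapter-trimmed reads. At this depth most precursors had few reads, each line had 1 library, and copies made by PCR cannot be told from separate molecules. Only reads aligned to precursors were used, so phasiRNAs themselves were not analysed here.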
